A study of Homo sapiens with 4 samples.

Results

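The genes followed here encode the NF-κB subunits and the inhibitors that act on them: NFKB1, NFKB2, RELA and RELB, and NFKBIA, NFKBIE, NFKBIZ and TNFAIP3. They were chosen by symbol, and every probe set annotated to only 1 of these genes was taken, which gave 8 of 19775 genes and 14 of 41097 probe sets that name a single gene. Panc1 is an established human pancreatic cancer cell line, and its RNA was read on 4 Affymetrix arrays, 1 per condition. The conditions were romidepsin together with tamoxifen (the combination), romidepsin alone, tamoxifen alone, and no drug, and treatment lasted 24 hours. Romidepsin inhibits histone deacetylases. Tamoxifen binds the estrogen receptor and blocks or mimics estrogen depending on the tissue. No dose of either drug was stated in the labels. All cells were from this single line. The comparisons ask what each drug does to these genes alone and in the presence of the other. With 1 array per condition there is no spread between cultures, so no test was made, no p-value or SD is given, and every fold describes these arrays only. In such bulk RNA, fewer cells that express a gene and less RNA of it per cell cannot be told apart.

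NF-κB is a family of dimeric transcription factors that switch on inflammatory and survival genes. In resting cells the IκB proteins hold the dimers in the cytoplasm. Receptors for cytokines such as TNF and IL-1 activate the IκB kinase complex, which marks the inhibitors for destruction and frees the dimers to enter the nucleus. Several of the inhibitors are themselves NF-κB target genes, so that the pathway feeds back on itself. In pancreatic cancer NF-κB activity is known to be frequently raised. The arrays measured RNA and do not show where the proteins were or whether they were active.

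The members include genes known to be NF-κB targets, so the stretch just before the RefSeq starts of the 3 members that changed at least 2-fold with romidepsin or with the combination is shown first. The sequences cover the 250 bases before a start, 5′ to 3′ on the gene's strand, from RefSeq (GRCh38.p14), and capitals mark matches to the κB consensus (the 10-base binding motif of NF-κB) on either strand. Where a gene had several starts the most upstream is printed.
NFKB1, chr4:102501109-102501358, plus strand: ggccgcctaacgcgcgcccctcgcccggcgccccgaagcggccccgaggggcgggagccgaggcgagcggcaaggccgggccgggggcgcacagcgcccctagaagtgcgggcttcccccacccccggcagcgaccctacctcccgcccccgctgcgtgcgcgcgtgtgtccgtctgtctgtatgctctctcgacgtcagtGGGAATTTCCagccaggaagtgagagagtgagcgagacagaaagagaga
NFKBIZ, chr3:101827740-101827989, plus strand: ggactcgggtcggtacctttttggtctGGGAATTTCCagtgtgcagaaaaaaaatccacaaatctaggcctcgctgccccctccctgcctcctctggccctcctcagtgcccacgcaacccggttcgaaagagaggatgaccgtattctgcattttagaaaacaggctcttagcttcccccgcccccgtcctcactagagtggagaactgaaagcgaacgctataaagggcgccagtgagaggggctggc
TNFAIP3, chr6:137867009-137867258, plus strand: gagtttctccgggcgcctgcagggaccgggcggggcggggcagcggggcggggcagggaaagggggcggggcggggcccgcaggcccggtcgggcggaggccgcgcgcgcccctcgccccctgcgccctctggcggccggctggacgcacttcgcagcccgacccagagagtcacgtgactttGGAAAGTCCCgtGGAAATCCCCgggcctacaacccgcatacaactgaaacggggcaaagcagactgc
NFKB1, which fell with romidepsin, and NFKBIZ, which rose, carried the same letters, GGGAATTTCC. In NFKB1 the match lay 49 to 40 bases before the start, and in NFKBIZ 223 to 214 bases before it. TNFAIP3, which rose, had 2 matches on the minus strand, GGAAAGTCCC at 67 to 58 bases and GGAAATCCCC at 55 to 46 bases before the start.

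The table of starts held 11 windows for 6 of the 8 genes, and NFKBIE and RELB had no entry in it. A κB match was present in 7 of the 11 windows, against 5.21% of all 35114 windows of that length. A looser pattern, GGG and CC separated by any 5 bases and searched on both strands, covers every κB consensus match. It was present in 10 of the 11, against 54.4% of all windows. The matches were not limited to members that changed with romidepsin: 2 of 3 NFKB2 windows and the NFKBIA window also held one. Both RELA windows and the NFKB1 window that is not printed held none. The 11 windows had a GC content of 48.4% to 79.2%, against a median of 58% over all windows. The part of GC content in the matches was not tested. A match is a stretch of letters and not a measured binding site.

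Signals are MAS5 values on a linear scale in arbitrary units, and the brightest probe set, by mean log2 signal, stands for a gene. The median over all probe sets that are not controls, 66.4, served as a floor, and any signal under it was set to it before folds were taken. Rise and fall are used below for differences of at least 2-fold. Levels are compared only between arrays, never between genes, because probe sets differ in brightness. When 2 probe sets of a gene were compared, their log2 folds typically (median) differed by an amount that lay between 0.21 and 0.29 in the 5 comparisons, over 5245 genes. That technical spread is the yardstick used below, and it leaves out variation between cultures.

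The arrays differed in ways the treatments do not define. The actin control probes near the 3′ end read higher than those near the 5′ end, the more so the more degraded the RNA, and their ratio was 1.73 on the combination array, 1.18 with romidepsin, 1.39 with tamoxifen and 1.21 in untreated cells. The GAPDH control probes did not share this order. Their ratio was 1.07 on the combination array, 1.03 with romidepsin, 1.04 with tamoxifen and 1.07 in untreated cells. Hybridization spike-ins, which carry no RNA of the cells, stood at 0.819 times the untreated level on the combination array, 1.01 times with romidepsin and 0.781 times with tamoxifen. Of 6 epithelial markers 5 were above the floor on at least 1 array, with KRT18 between 11344 and 25361, and KRT19 was below the floor on all 4. Their summed signals were 17054 for the combination, 32349 with romidepsin, 23533 with tamoxifen and 35589.5 in untreated cells. Single markers differed in direction. EPCAM read 475 in the combination, 395 with romidepsin, 71.9 with tamoxifen and 64.3 in untreated cells. CDH1 read 874, 1027, 452 and 223 in the same order. KRT7 and KRT18 were lower on both arrays with romidepsin than in untreated cells. KRT8 was lower in the combination and higher with romidepsin alone. All 3 mesenchymal markers known from Panc1 were above the floor on every array, with VIM between 22486 and 38695. Of 5 leukocyte markers 4, PTPRC, CD3E, CD14 and LYZ, were below the floor on all arrays, and the summed signal of all 5 was 208 for the combination, 260 with romidepsin, 151 with tamoxifen and 172 in untreated cells. Of 5 fibroblast markers 3, COL1A2, LUM and PDGFRB, were below the floor on all arrays. The others were above it on every array, COL1A1 between 6365 and 9773 and DCN between 67.1 and 91.6. The 5 summed to between 6502 and 9956, most of it from COL1A1. Of 4 endothelial markers 3 passed the floor on both arrays with romidepsin and 1 on the other arrays, with sums of 539.8 for the combination, 564 with romidepsin, 217 with tamoxifen and 158 in untreated cells, and CDH5 was below it throughout. The part of marker levels or RNA integrity in the folds below was not tested.

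**Figure D1:**
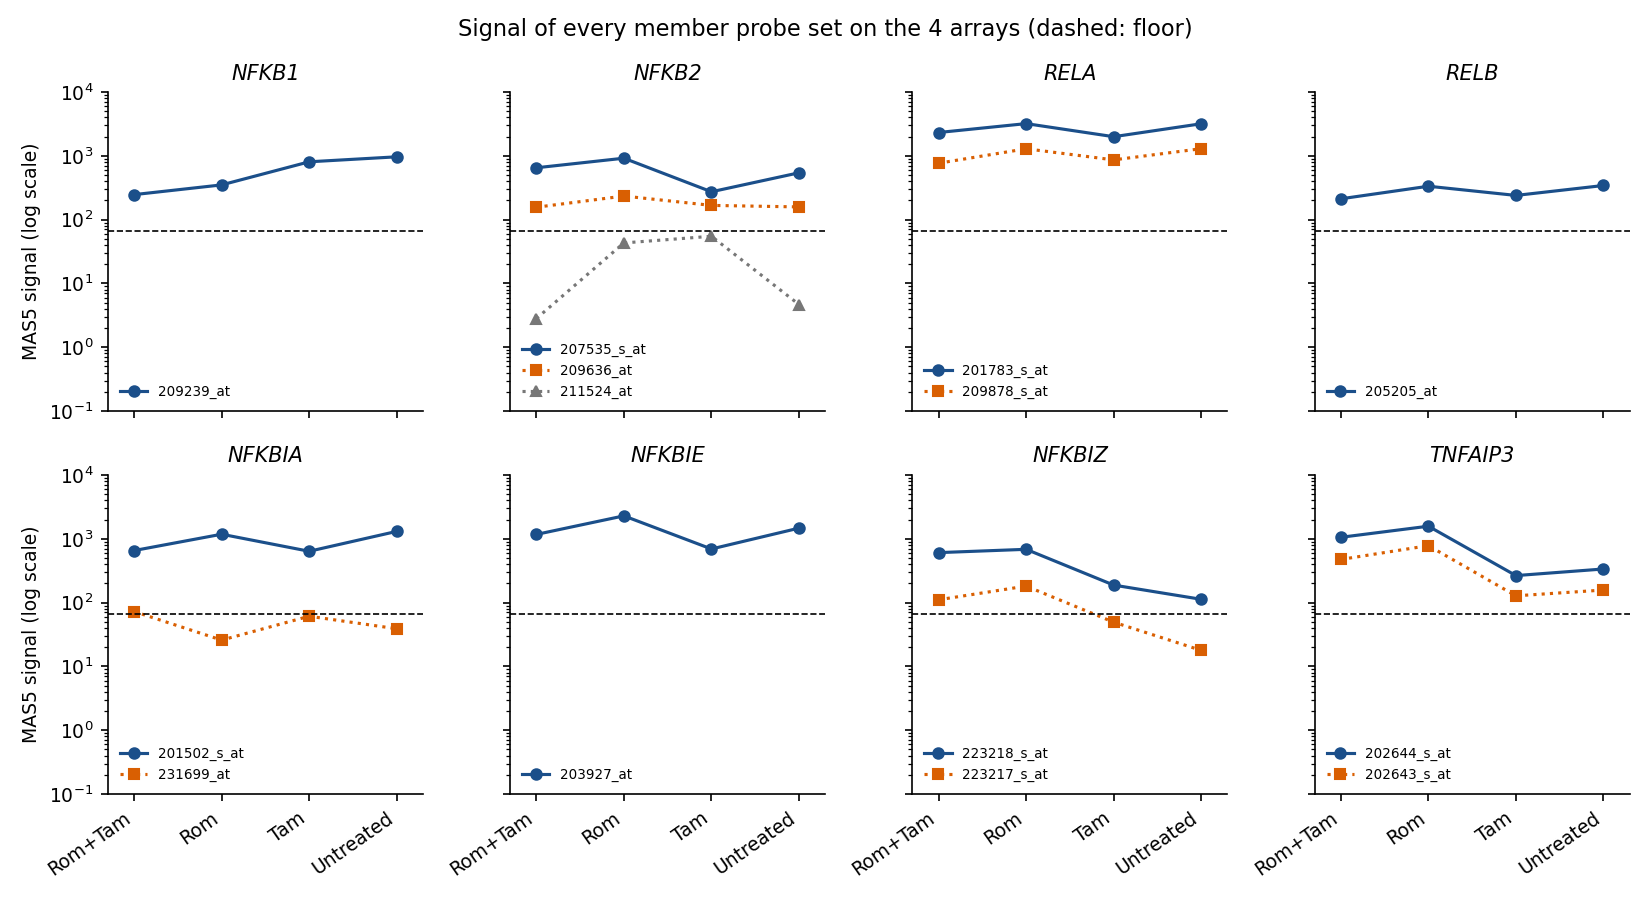
MAS5 signal on a log axis for every probe set of the 8 genes on the combination (Rom+Tam), romidepsin (Rom), tamoxifen (Tam) and untreated arrays, 1 point per array, with the floor of 66.4 dashed; the solid line is the brightest probe set. NFKBIZ and TNFAIP3 are high on both arrays with romidepsin, NFKB1 is low on both, and NFKBIA is low on both arrays with tamoxifen.

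With romidepsin alone, 2 inhibitor genes were higher and 1 subunit gene was lower than in untreated cells. Of the 8 members NFKBIZ and TNFAIP3 rose, NFKB1 fell, and the other 5 stayed below 2-fold. In this comparison 23.6% of all 13619 measured genes changed at least 2-fold, 14.3% upwards and 9.27% downwards, so a count of 3 in 8 is close to what the whole table shows. The member median was a log2 fold of 0.32, against 0.06 for all measured genes. The sizes of the individual folds carry more than the count: 243 genes had a higher fold than NFKBIZ, 381 had a higher fold than TNFAIP3, and 510 had a lower fold than NFKB1.

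NFKBIZ encodes IκBζ, an atypical inhibitor that sits in the nucleus and is needed to switch on a subset of NF-κB target genes. Its brightest probe set, 223218_s_at, read 607 in the combination, 684 with romidepsin, 188 with tamoxifen and 113 in untreated cells. The 2 arrays with romidepsin were therefore the high ones. The romidepsin fold was 6.07, or 2.60 on the log2 scale. The second probe set, 223217_s_at, read 111 in the combination and 181 with romidepsin and was below the floor on the other arrays, so that its rise with romidepsin was at least 2.73-fold. The untreated signal of NFKBIZ was near the floor, and with the floor at the 75th percentile of all signals the log2 fold of the first probe set was 0.74, no longer past 2-fold.

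TNFAIP3 encodes A20, a ubiquitin-editing enzyme that shuts off signalling upstream of the IκB kinases. Probe set 202644_s_at read 1055 in the combination, 1575 with romidepsin, 265 with tamoxifen and 336 in untreated cells. The second, 202643_s_at, read 475 in the combination, 781 with romidepsin, 128 with tamoxifen and 157 in untreated cells. Both put romidepsin highest, the combination next and tamoxifen lowest. The romidepsin folds were 4.68 and 4.96 for these probe sets, and the log2 fold of the gene lay between 1.95 and 2.27 over all settings in which it could be taken, the highest being the median over both probe sets.

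NFKB1 encodes p105, the precursor of the p50 subunit, which binds DNA but carries no activation domain of its own. Its single probe set, 209239_at, read 246 in the combination, 349.9 with romidepsin, 806 with tamoxifen and 964 in untreated cells. Both arrays with romidepsin were lower than both arrays without it. The fall with romidepsin was 2.76-fold, a log2 fold of -1.46, and it stayed at least 2-fold under all 7 other settings, between -1.65 and -1.24.

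The subunits that carry activation domains did not follow NFKB1. RELA encodes p65, the main activating partner of p50, and its brightest probe set read 2318 in the combination, 3195 with romidepsin, 1993 with tamoxifen and 3180.2 in untreated cells. Its log2 fold with romidepsin was 0.01, and that of its second probe set -0.0049. RELB, the partner of p52 in the non-canonical pathway, read 212 in the combination, 334 with romidepsin, 239 with tamoxifen and 343 in untreated cells, with a log2 fold of -0.04 for romidepsin. Both genes had nearly the same signal with romidepsin as without treatment and lower signals on both arrays with tamoxifen.

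NFKB2 encodes p100, which acts as an inhibitor until it is processed to the p52 subunit. Its brightest probe set read 649 in the combination, 917 with romidepsin, 273 with tamoxifen and 542 in untreated cells, with a romidepsin log2 fold of 0.76. A second probe set read 156 in the combination, 234 with romidepsin, 167 with tamoxifen and 158 in untreated cells, with a romidepsin log2 fold of 0.57. Romidepsin gave the highest signal in both probe sets, but tamoxifen gave the lowest in the first one only. Its other probe set was below the floor on all 4 arrays.

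NFKBIA and NFKBIE encode IκBα and IκBε, classical inhibitors that hold dimers in the cytoplasm. NFKBIA read 654 in the combination, 1179 with romidepsin, 637 with tamoxifen and 1307 in untreated cells, and its romidepsin log2 fold of -0.15 was smaller than the technical spread. NFKBIE read 1171 in the combination, 2287 with romidepsin, 692 with tamoxifen and 1470.1 in untreated cells, with a romidepsin log2 fold of 0.64. NFKBIE was thus highest with romidepsin, and NFKBIA was not. The second NFKBIA probe set passed the floor on the combination array only, at 72.5, and gave no romidepsin fold.

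**Figure D2:**
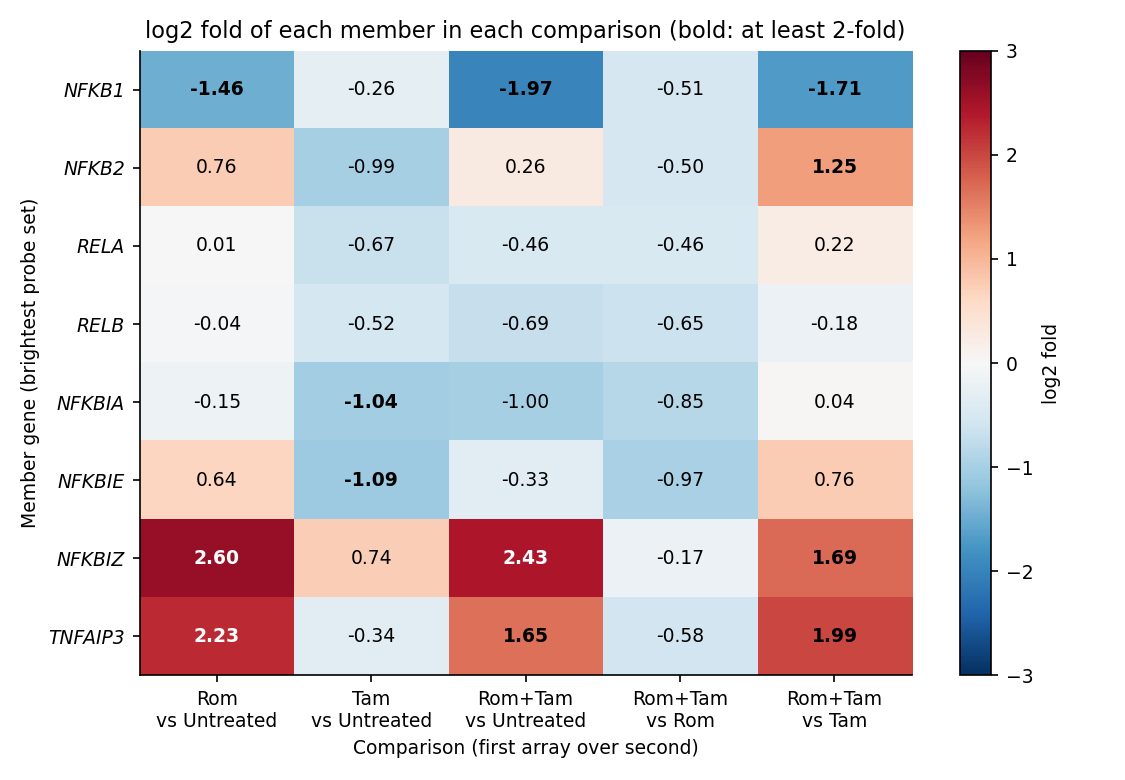
Heat map of log2 folds for the 8 genes (rows, brightest probe set) in the 5 comparisons (columns, first array over second), red for higher and blue for lower, with the value in each cell and bold type for changes of at least 2-fold. The column for the combination over romidepsin holds negative values only, from -0.97 to -0.17; scaled to the spike-ins, NFKBIZ there is 0.13.

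With tamoxifen alone, both classical IκB genes among the members were lower than in untreated cells. NFKBIE fell 2.12-fold and NFKBIA 2.05-fold, and none of the 8 members rose. Of all 13051 measured genes 4.77% changed at least 2-fold, 3.7% upwards and 1.07% downwards, and 2 of the 8 members fell. Among the genes measured, 76 had a lower fold than NFKBIE and 106 a lower fold than NFKBIA. NFKB2 lay just inside the threshold, with a log2 fold of -0.99 in its brightest probe set, but its second probe set gave 0.08, and the difference between them, 1.07, is well above the technical spread of 0.22 for this comparison.

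The log2 folds of the subunits with tamoxifen were -0.67 for RELA, -0.52 for RELB and -0.26 for NFKB1. TNFAIP3 stood at -0.34, and NFKBIZ was the only positive value at 0.74. The member median was -0.60, against 0.01 for all measured genes. These values depend on how the arrays are put on a common scale, because the spike-ins were low on the tamoxifen array. Scaled to the spike-ins, the median of all genes was 0.33 and that of the members -0.24. With the median over probe sets NFKBIA stood at -0.19, but that median takes in its second probe set, below the floor on both arrays. On the spike-in scale NFKBIE at -0.73 and NFKBIA at -0.68 no longer passed 2-fold, NFKBIZ did at 1.10, and NFKB1 and TNFAIP3 turned to 0.10 and 0.01. The array with tamoxifen also had a higher actin ratio than the untreated array, but not a higher GAPDH ratio. The part of RNA integrity in these values was not tested.

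In the combination the same 3 members changed as with romidepsin alone. Compared with untreated cells, NFKBIZ rose 5.39-fold, TNFAIP3 rose 3.14-fold and NFKB1 fell 3.91-fold. In this comparison 34.1% of 13802 measured genes changed at least 2-fold, 19.8% upwards and 14.4% downwards, so 3 of 8 members again lies near the share of the whole table. The member median was -0.39, against 0.09 for all genes. NFKBIA missed the threshold narrowly, at a 1.998-fold lower signal, and it passed with the arrays centred on their medians or quantile normalized. It was -0.05 with the median over probe sets and 0.13 in its dim second probe set alone. With the floor at the 75th percentile NFKBIZ stood at 0.57 and no longer passed 2-fold. RELB stood at -0.69, RELA at -0.46, NFKBIE at -0.33 and NFKB2 at 0.26, and NFKB2 turned to -0.03 with the arrays centred on their medians.

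Adding tamoxifen to romidepsin was examined by setting the combination against romidepsin alone. As deposited, all 8 members had a lower signal in the combination (7 of 8 after spike-in scaling or with the median over probe sets, 4 of 5 without probe sets that can match several transcripts), and 0 of 8 passed 2-fold, where 6.35% of 13726 measured genes did. The member median was -0.54, against -0.03 for all genes. The lowest values among the members were those of the classical inhibitors NFKBIE, at -0.97, and NFKBIA, at -0.85. NFKBIA was 0.32 with the median over probe sets, which takes in its dim second probe set, and 0.13 in that probe set alone. RELB followed at -0.65, TNFAIP3 at -0.58, NFKB1 at -0.51, NFKB2 at -0.50 and RELA at -0.46. As deposited these exceeded the technical spread of 0.21, which leaves out variation between cultures, while NFKBIZ at -0.17 was within it. Scaled to the spike-ins, NFKBIZ turned to 0.13, the other 7 stayed negative, and the median of all genes was 0.25. NFKB1 at -0.20, NFKB2 at -0.19 and RELA at -0.16 were then within 0.21, and the member median was -0.24. NFKBIE passed 2-fold, at -1.07, with the arrays centred on their medians. The combination array had the highest actin ratio of the 4, while its GAPDH ratio was 1.07, against 1.03 with romidepsin. The part of RNA integrity in these values was not tested.

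Adding romidepsin to tamoxifen, seen in the combination against tamoxifen alone, moved 4 of the 8 members past 2-fold. TNFAIP3 rose 3.98-fold, NFKBIZ rose 3.23-fold, NFKB2 rose 2.38-fold in its brightest probe set, and NFKB1 fell 3.27-fold. The share among 13893 measured genes was 26.6%, of which 14.8% were upwards and 11.8% downwards. With the floor at the 75th percentile the NFKB1, NFKB2 and NFKBIZ calls were lost. The NFKB2 rise was not seen in its second probe set, whose log2 fold was -0.10. NFKBIE stood at 0.76, RELA at 0.22, NFKBIA at 0.04 and RELB at -0.18, the last 3 within the technical spread of 0.25.

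The signals of each member can be ordered over the 4 arrays. NFKB1 was lowest in the combination, then romidepsin, tamoxifen and untreated cells, and its difference between tamoxifen and untreated cells, 0.26, was only a little above the technical spread of 0.22. NFKBIA, RELA and RELB each had a pair of near-equal high arrays, untreated and romidepsin, and a pair of lower arrays, tamoxifen and the combination. The combination and tamoxifen differed by 0.22 or less on the log2 scale in these 3 genes. NFKBIZ and TNFAIP3 had the reverse division, by romidepsin, with the combination and romidepsin 0.17 apart for NFKBIZ and 0.58 apart for TNFAIP3.

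If the log2 effects of the drugs simply added, the combination would equal the sum of the single-drug folds. NFKBIZ fell short of that sum: 2.43 was observed against a sum of 3.34, a departure of -0.91. The 5th to 95th percentile of departures over 14414 genes ran from -0.81 to 0.71, with a median of -0.03. The other 7 members lay inside that range, from -0.25 for NFKB1 to 0.49 for NFKB2, and the member median was -0.01. The NFKBIZ departure was -0.17 with the floor at the 75th percentile, inside the range, and that of NFKB2 was -0.66 with the median over probe sets. All 4 arrays enter each departure, so it shares its data with the folds above.

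**Figure D3:**
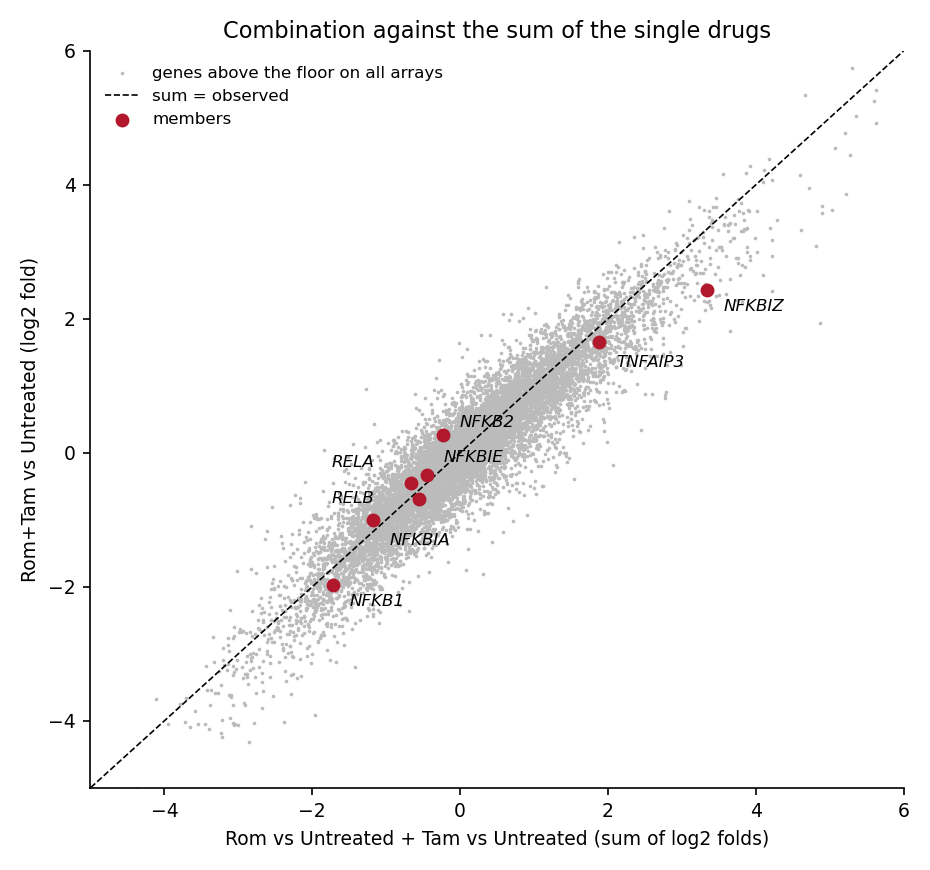
Observed log2 fold of the combination over untreated cells against the sum of the log2 folds of romidepsin and tamoxifen alone, for 11058 genes above the floor on all arrays (grey) and the 8 members (red), with the line of equality dashed. NFKBIZ lies furthest below the line among the members, at 2.43 observed against a sum of 3.34.

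Likeness to each member was measured as the Euclidean distance over the 3 log2 folds against untreated cells, among 11058 genes above the floor on all arrays. These folds share the untreated array, and with so few conditions many genes lie close to any given pattern. The genes closest to NFKB1 were BCL2L1, at a distance of 0.03, and SH3RF2, at 0.04. BCL2L1 encodes the survival protein BCL-XL and had log2 folds of -1.45 with romidepsin, -0.27 with tamoxifen and -1.94 in the combination. TUBA4A at 0.14 and IRF7 at 0.19 were closest to TNFAIP3, and TMOD1 at 0.19 and PADI2 at 0.21 to NFKBIZ. The genes closest to RELA were TYMSOS and ICAM3, both at 0.03, to RELB CFAP410 at 0.05 and FAM53A at 0.06, and to NFKBIA CD2BP2 and BATF3, both at 0.11. GAMT at 0.20 and ACAA1 at 0.21 were closest to NFKB2, and RNA45SN5 at 0.18 and TK1 at 0.24 to NFKBIE. Among the members themselves the closest pair was RELA and RELB at 0.29, and 194 other genes lay closer to RELA than RELB did.

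The remaining Rel and IκB genes were taken from a list of 6, of which 5 were measured. With romidepsin 1 of the 5 fell, none rose, and the median log2 fold was -0.12, where 9.27% of all measured genes fell and 14.3% rose. NFKBID, another nuclear IκB gene, fell 2.20-fold with romidepsin and 2.84-fold in the combination, the opposite direction to NFKBIZ, but neither fall passed 2-fold with the median over probe sets. NFKBIB, which encodes IκBβ, read 829 in the combination, 1768 with romidepsin, 1669 with tamoxifen and 2840.1 in untreated cells, and fell 3.42-fold in the combination. REL encodes c-Rel, another subunit with an activation domain, and read 705 in the combination, 338 with romidepsin, 528 with tamoxifen and 368 in untreated cells. It rose 2.09-fold in the combination over romidepsin, where RELA and RELB had negative values, and 3 of its 4 measured probe sets had that direction. That call was lost with the arrays centred on their medians, with quantile normalization, with the floor at the 75th percentile and with the median over probe sets. The NFKBIB fall did not pass 2-fold without probe sets that can match several transcripts. The log2 folds of NFKBIL1, a gene named for its likeness to the inhibitors, and of NKRF, a repressor of NF-κB promoters, stayed below 2-fold with romidepsin, at -0.08 and 0.64.

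The list of IκB kinases also held their scaffold and NIK, 6 genes in all, and each was measured. With romidepsin 0 of the 6 passed 2-fold, where 23.6% of all measured genes did. TBK1, a kinase related to the IκB kinases, read 1819 in the combination, 648 with romidepsin, 1379.5 with tamoxifen and 745 in untreated cells. It rose 2.81-fold in the combination over romidepsin and 2.44-fold over untreated cells. CHUK, which encodes IKKα, read 2278 in the combination, 1611 with romidepsin, 1440.0 with tamoxifen and 929 in untreated cells, and rose 2.45-fold in the combination over untreated cells. With the arrays centred on their medians neither passed 2-fold against untreated cells. MAP3K14 encodes NIK, the kinase that starts NFKB2 processing, and read 835 in the combination, 1066 with romidepsin, 761 with tamoxifen and 1599 in untreated cells. It fell 2.10-fold with tamoxifen, a call lost with spike-in scaling, where its log2 fold was -0.72. IKBKB, which encodes IKKβ, lay between 136 and 208, IKBKG, the scaffold NEMO, between 861 and 1365, and IKBKE between 140 and 219, with no change of 2-fold in any comparison.

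Of 20 listed kinases and adaptors upstream of the IκB kinases 16 were measured, and with romidepsin 4 fell and 1 rose, with a median of -0.21, against 9.27% and 14.3% of all measured genes. With the median over probe sets 15 were measured, 2 fell and 0 rose. In the combination over untreated cells 5 fell and 1 rose, against 14.4% and 19.8%. IRAK1, a kinase of the IL-1 and Toll-like receptor pathway, read 3823 in the combination, 6495 with romidepsin, 15469.5 with tamoxifen and 25190.1 in untreated cells, and fell 3.88-fold with romidepsin. The adaptor of the same receptors, MYD88, fell 3.01-fold with romidepsin and 3.73-fold in the combination, and TRAF3, which restrains NIK, fell 2.57-fold with romidepsin and 4.19-fold in the combination. The TRAF3 call with romidepsin was lost with the median over probe sets, at -0.99. TAB3, a partner of the kinase TAK1, went the other way and rose 2.65-fold with romidepsin, 2.18-fold with tamoxifen and 4.77-fold in the combination. Its romidepsin rise was lost with the floor at the 75th percentile and with the median over probe sets, and its tamoxifen rise with median centring, quantile normalization and the higher floor. With the median over probe sets TAB3 was below the floor on the combination, tamoxifen and untreated arrays and gave no fold for those.

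Of 17 listed receptors and ligands 11 were measured with romidepsin, where 2 rose and 1 fell, with a median of 0.50, against 14.3% and 9.27% of all measured genes. IL1RAP, the accessory chain of the IL-1 receptor, read 1744 in the combination, 1429 with romidepsin, 107 with tamoxifen and 94.0 in untreated cells. It rose 15.2-fold with romidepsin, from an untreated signal near the floor. Over all settings this log2 fold lay between 1.81 and 3.93. TNFRSF1A, the main TNF receptor, read 297 in the combination, 457 with romidepsin, 2029.7 with tamoxifen and 1914 in untreated cells, and fell 4.19-fold with romidepsin. IL1RAP and TNFRSF1A thus differed in direction on the arrays with romidepsin. IL1R1, another IL-1 receptor gene, stayed below 2-fold with romidepsin, at a log2 fold of -0.20. TNFRSF1B, the other TNF receptor, rose at least 3.51-fold with romidepsin from below the floor. TNF itself was below the floor on all 4 arrays, as was IL1A. A gene below the floor in untreated cells could be counted as a rise but not as a fall.

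Among 13 measured ubiquitin enzymes and other negative regulators 1 rose and 1 fell with romidepsin, against 14.3% and 9.27% of all measured genes. In the combination over untreated cells 3 rose and 3 fell, against 19.8% and 14.4%. With the median over probe sets 0 of the 13 passed 2-fold with romidepsin. CYLD, a deubiquitinase that removes the chains needed for IκB kinase activation, read 840.3 in the combination, 649 with romidepsin, 265 with tamoxifen and 174 in untreated cells. It rose 3.73-fold with romidepsin, with all 6 measured probe sets in that direction, but not past 2-fold with the median over probe sets or with the floor at the 75th percentile. PDLIM2, a ubiquitin ligase that targets nuclear p65, read 139 in the combination, 236 with romidepsin, 369 with tamoxifen and 938 in untreated cells, and fell 3.98-fold with romidepsin and 2.54-fold with tamoxifen. Neither fall passed 2-fold with the median over probe sets, where its log2 folds were -0.23 with romidepsin and 0.19 with tamoxifen, and the tamoxifen call was also lost with spike-in scaling. That median takes in probe sets below the floor, and only 1 PDLIM2 probe set was measured with romidepsin. TAX1BP1, an adaptor through which A20 acts, rose 3.26-fold in the combination over untreated cells, and TRAIP fell 3.14-fold. The TAX1BP1 call was lost without probe sets that can match several transcripts and the TRAIP call with the floor at the 75th percentile.

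Genes known as NF-κB targets moved in both directions with romidepsin. Of 36 listed, 28 were measured, 11 rose and 8 fell, against 14.3% and 9.27% of all measured genes, and the median was 0.62 against 0.06. A target below the floor in untreated cells could be counted as a rise but not as a fall. With the floor at the 75th percentile 18 were measured, 6 rose and 7 fell, and the median was 0.31. At that floor 18.6% of all measured genes changed at least 2-fold. CCL20 and CXCL8, chemokine genes below the floor in untreated cells, rose at least 29.7-fold and at least 20.4-fold, and CXCL1 rose 16.2-fold. ICAM1, the adhesion molecule, read 2246 in the combination, 1680.2 with romidepsin, 139.6 with tamoxifen and 166 in untreated cells. Against these, PLAU, which encodes urokinase, fell 31.6-fold with romidepsin, BCL2A1, a survival gene, 7.87-fold and CD44, an adhesion receptor, 4.93-fold. With tamoxifen alone 1 of 24 measured targets fell and 0 rose, where 1.07% of all measured genes fell and 3.7% rose.

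In the combination over romidepsin the median of the targets was negative, as were those of the members, of every other list and of all measured genes. The other lists ran from -0.37 for the Rel and IκB genes to -0.05 for the receptors and ligands, and all genes stood at -0.03. Of 29 measured targets 12 fell and 0 rose, where 2.27% of all measured genes fell and 4.07% rose, and the median was -0.69. Scaled to the spike-ins, 8 of 29 fell and the median was -0.39. On that scale 89 of all 13744 measured genes fell, and their median was 0.25. CXCL1 fell 6.47-fold in this comparison, CCL20 4.61-fold, PTX3, which encodes the pattern-recognition protein pentraxin 3, 4.49-fold and CXCL8 3.88-fold, and the PTX3 call was lost with the floor at the 75th percentile. ICAM1 did not share this, with a combination signal 1.34-fold above that of romidepsin. No relation between the level of a member and that of a target was tested, since 4 arrays do not allow one.

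**Figure D4:**
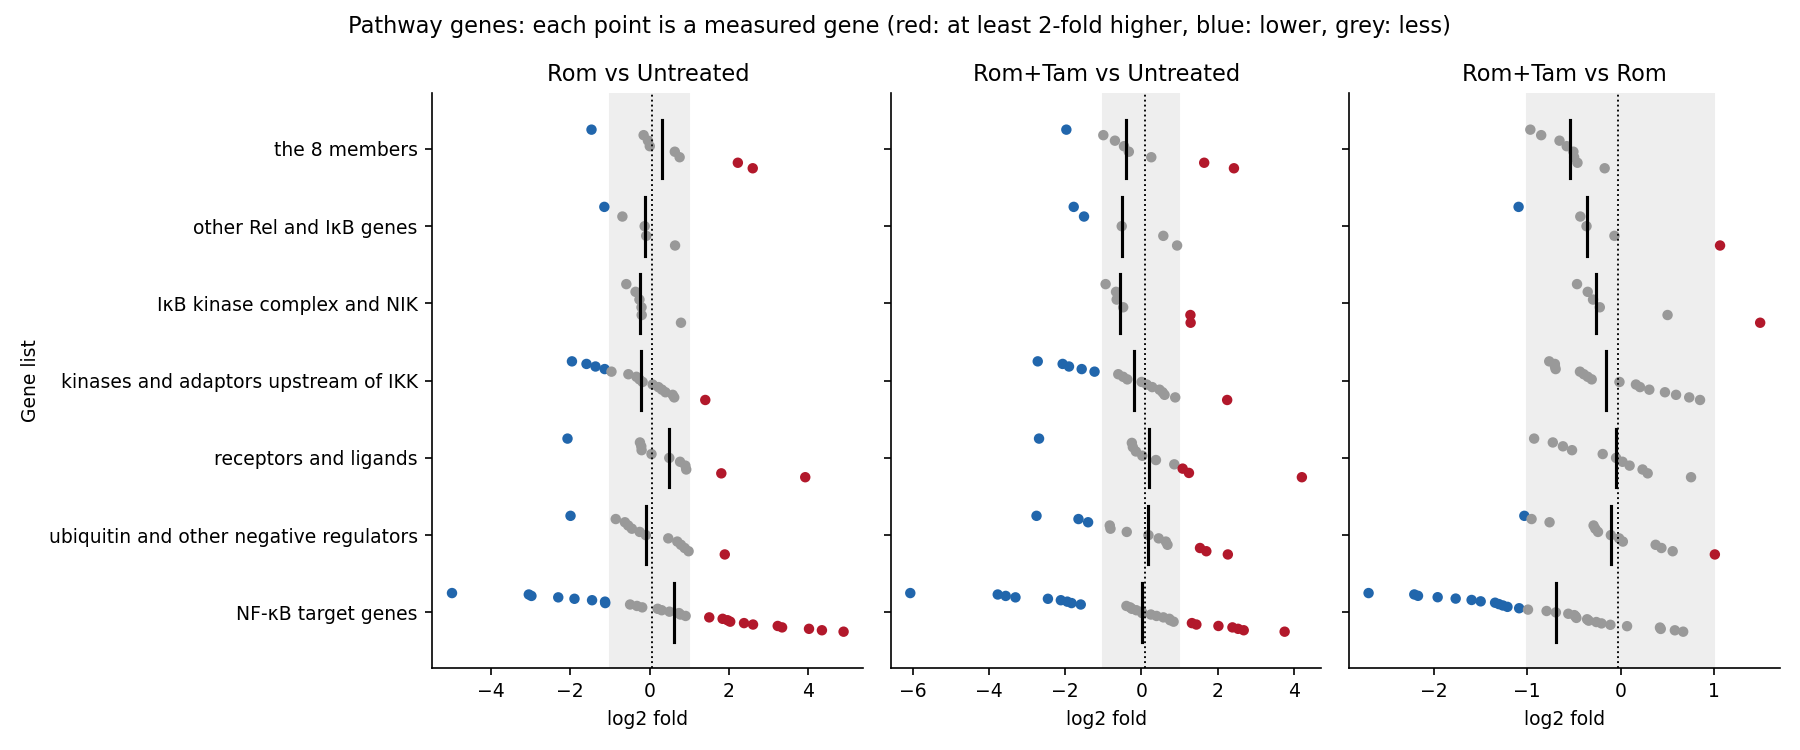
Log2 folds of measured genes (points) in the 8 members and 6 lists of pathway genes (rows) for romidepsin over untreated cells, the combination over untreated cells and the combination over romidepsin; red is at least 2-fold higher, blue at least 2-fold lower, the black tick is the list median and the dotted line the median of all measured genes. In the right panel 12 of the 29 targets are blue and 0 are red.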

How the data were processed

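RNA of 4 Panc1 samples, 1 per condition, was labelled with a 3′ IVT kit and hybridized to 1 array each, per the labels' protocols. The authors deposited linear MAS5 intensities, 1 per probe set and array, and the submitters' processing notes name MAS5 without a version. MAS5 scales each array on its own, and the trimmed means of the deposited intensities were equal, 499.9 on all 4 arrays. Columns of other samples numbered 0.

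Each array held 54675 probe sets, of which 62 were controls. The platform annotation named 1 gene for 41097 and several for 1801, and the rest were unnamed here. By Entrez ID 41043 matched RefSeq (GRCh38.p14). Intensities were floored at 66.4 (the median) before log2 was taken. A gene was measured where at least 1 of the 2 arrays was above the floor, called at 2-fold, and a fold from the floor is a lower bound.

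The members and lists were chosen with earlier results of these data known. Of each list, genes named were among the 4 with the largest absolute folds in romidepsin over untreated cells, the combination over untreated cells or the combination over romidepsin. All measured genes of the IκB kinase list and of the Rel and IκB list were named. TNF, IL1A and IL1R1 were named after their values were seen. Of 100 listed pathway genes 92 had a probe set of their own. Alternatives were median centring, quantile normalization, spike-in scaling, floors at the 25th and 75th percentile, the median over probe sets, use of only those specific to 1 transcript, and a 1.5-fold threshold. The median over probe sets was taken before the floor was applied and so takes in probe sets below it. The calling steps were tested on simulated data. Python 3.11.15, numpy 2.4.6, pandas 2.3.3 and matplotlib 3.10.9 were used. The number of arrays limits the precision.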

Additional observations from a re-analysis of the deposited data

Results flagged for a closer look

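For 2 members the effect of a drug had opposite signs without and with the other drug, with 1 array behind each value, and the difference was not tested. The tamoxifen log2 fold of NFKBIZ was -0.17 in the presence of romidepsin and 0.74 alone, a difference of -0.91. The first of these values is within the technical spread of 0.21, and scaled to the spike-ins it was 0.13, so that the signs were then the same. The romidepsin log2 fold of NFKBIA was 0.04 in the presence of tamoxifen and -0.15 alone, a difference of 0.19, and both values are within the technical spread of their comparisons.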

How the results depend on the processing

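No paired analysis was possible because each condition has 1 array, and for the same reason no array could be left out. Counts of members past 2-fold are given here with the share of all measured genes that passed in the same setting. For tamoxifen the count was 2 as deposited (4.77%), 1 with spike-in scaling (11.7%) and 1 with the median over probe sets (4.49%). It was 3 with median centring (4.59%) and 3 with quantile normalization (4.21%). For the combination over romidepsin it was 1 with each array centred on its median (6.26%). For the combination over tamoxifen it was 1 with the floor at the 75th percentile (22.5%). The cause was not tested. Without probe sets that can match several transcripts RELA, NFKBIZ and TNFAIP3 had no value, and 4 or 5 members were measured. The counts were then 1 for romidepsin (23.7%), 1 for tamoxifen (5.03%), 1 for the combination over untreated cells (33.8%) and 1 over tamoxifen (26.3%). At a 1.5-fold threshold they were 5, 5 and 5 for romidepsin, tamoxifen and the combination against untreated cells and 3 for the combination over romidepsin, where 45.3%, 23.5%, 55.4% and 24.97% of all genes passed it. The NFKB2 fold in the combination over tamoxifen reversed to -0.10 with the median over probe sets and to -0.10 without probe sets that can match several transcripts. Its second probe set then stands for the gene. Of 255 recomputed log2 folds of single members 18 had the other sign, in 10 of 40 pairs of gene and comparison; the others besides these 2 belonged to values under 2-fold. The share of rises among all calls, with arrays centred on their medians, was 47.4% for romidepsin (60.7% as deposited), 48.0% for tamoxifen (77.5%), 41.2% for the combination (57.9%) and 46.4% for the combination over romidepsin (64.2%). Centring moved the median of all genes to -0.11, -0.13, -0.17 and -0.13 in the same comparisons. Members near the floor, NFKBIZ above all, are the least precise.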
